A study of Mus musculus with 16 samples.

Results

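The 10 genes described here were the myotubularins Mtmr11, Mtm1, Mtmr1, Mtmr2, Mtmr3, Mtmr4, Mtmr6, Mtmr9, Mtmr10 and Mtmr12, taken by gene name from a count table of 55421 genes in mouse liver. Mtmr11 was picked because it stood out between HIRA KO and control in resting liver, so its values in that comparison are given as a description with no test. The other 9 genes were picked as its relatives by name. All 10 passed the filter of at least 10 counts over all libraries, which left 23018 genes. Myotubularins are lipid phosphatases that remove the 3-phosphate from PI3P and PI(3,5)P2, the lipids that mark endosomes and autophagosomes. A number of family members have lost the catalytic residues and act as partners of the active enzymes. MTM1 is mutated in X-linked myotubular myopathy and MTMR2 in a form of Charcot-Marie-Tooth neuropathy.

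Poly-A RNA of male C57BL/6 mouse liver had been sequenced in 16 libraries that form 4 groups of 4. HIRA, the chaperone that deposits the histone variant H3.3 outside of replication, was deleted with an AAV8 virus whose Tbg promoter acts in hepatocytes, so the other liver cells kept the gene. HIRA KO mice were HIRA fl/fl mice given AAV8-Tbg-Cre or wildtype mice given AAV8-Tbg-saCas9-sgRNA-HIRA. Their controls were wildtype mice given AAV8-Tbg-Cre or AAV8-Tbg-saCas9-sgRNA-Rosa26, and both deletion approaches contributed 2 libraries to every group. Every mouse, control mice included, received a virus at 6 months of age and a partial hepatectomy 4 weeks later. The resected left lateral and median lobes were the tissue before regeneration, and the liver left in the same mouse was taken 5 days later as the tissue after regeneration. Lobe, surgery and time therefore changed together and cannot be told apart. The table names the group of each library and a running number from 1 to 4, but not its deletion approach or mouse.

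Total counts ran from 15103059 to 21738619 per library. Values are CPM, counts scaled to a TMM-adjusted library total of 1000000. Summed over 6 hepatocyte markers the CPM was between 97965 and 155433 in every library. Hira itself was at 3.13 to 4.38 CPM in HIRA KO and 5.21 to 6.18 CPM in control before regeneration, and at 3.03 to 4.56 and 4.99 to 6.29 CPM after it. The HIRA KO mean was 61.4% and 62.0% of control, and the groups did not overlap at either time. The edgeR adjusted p for Hira was 0.129 before and 0.0666 after, so the gene was not called. HIRA KO libraries 1 and 2 stood apart at both times, at 36.2 to 47.4 on the second principal component, on which the other 12 libraries were at 1.14 or below. The same libraries had the most counts from 6 stellate cell and matrix markers before regeneration, 530 and 403 CPM against 188 to 205 CPM in control. They were also above control before regeneration in the sums of 5 cholangiocyte markers (143 and 97.0 against 47.7 to 72.3 CPM), 5 mitotic genes (16.8 and 12.0 against 2.83 to 7.50 CPM) and the hepatocyte markers (155433 and 138518 against 97965 to 110897 CPM). The part of these markers in the results was not tested. Each result below was therefore also computed without HIRA KO libraries 1 and 2 and without 3 and 4, a choice made after these values were seen.

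The catalytic loop of an active myotubularin runs from a cysteine to an arginine, so the 9 codons around it show which members can be enzymes. They were read from the transcript sequences of GENCODE M21, with positions on the mouse genome (GRCm38) from its exons. The capitals mark the codons at the cysteine and the arginine, and 3 active members are shown above the 4 that have lost both.
Mtm1: cacTGCagtgacggatgggacAGGacc
Mtmr2: cacTGCagtgatggatgggatCGCaca
Mtmr3: cacTGCtccgatggctgggatCGGact
Mtmr9: catGGGacagaaggaactgatTCCaca
Mtmr10: caaGAGgaggaaggcagagacTTGagt
Mtmr11: caaGAGcttggggatcgtgatTTCaat
Mtmr12: ttgGAAgagaatgcttctgatCTCtgc

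Mtm1, Mtmr1, Mtmr2, Mtmr3, Mtmr4 and Mtmr6 had a cysteine codon and an arginine codon at these places. Mtmr9, Mtmr10, Mtmr11 and Mtmr12 had neither, and their windows were located by alignment to Mtmr2. Mtmr10 and Mtmr11 shared the codon GAG at the cysteine position. The Mtmr11 window was split by an intron between exons 12 and 13, at chr3:96168140-96168621 on the plus strand, as were those of Mtmr10 at chr7:64321230-64326674 and Mtmr12 at chr15:12261908-12263747. The Mtmr9 window lay within exon 7 on the minus strand, at chr14:63529818-63529844. The windows of Mtm1 at chrX:71299634-71299660 and Mtmr2 at chr9:13799942-13799968 lay within exon 11 on the plus strand, and that of Mtmr3 at chr11:4492776-4492802 lay within exon 12 on the minus strand.

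Mtmr11 (ENSMUSG00000045934.15) is an inactive member and spans chr3:96162004-96171718 on the plus strand. In resting control liver it was at 2.49, 2.47, 2.63 and 0.888 CPM in libraries 1 to 4, which came from only 15 to 50 reads. In resting HIRA KO liver it was at 13.9, 17.2, 12.6 and 7.39 CPM, from 118 to 262 reads. Each HIRA KO library was above each control library, and the lowest HIRA KO value was that of library 4, as in control. The means were 2.12 ± 0.825 and 12.8 ± 4.08 CPM (SD, n = 4), a ratio of 6.02. The fitted log2 fold change was 2.58 ± 0.29 (SE), given without a test because this comparison chose the gene. It was 2.22 without HIRA KO libraries 1 and 2 and 2.86 without libraries 3 and 4. In bulk tissue, more RNA per cell and more cells of a type that expresses the gene cannot be told apart.

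After regeneration the genotypes overlapped in Mtmr11. Control libraries 1 to 4 were at 11.1, 12.0, 13.5 and 11.0 CPM, and HIRA KO libraries at 18.5, 14.5, 14.9 and 11.4 CPM. The groups overlapped only through HIRA KO library 4, which lay within the control range. The means were 11.9 ± 1.17 CPM in control and 14.8 ± 2.90 CPM in HIRA KO (SD, n = 4). These libraries were not used to choose the gene, although they came from the same mice. The log2 fold change of HIRA KO against control was 0.32 ± 0.26 (SE) (edgeR adjusted p = 0.589), and 2 SE on each side gave an interval of -0.19 to 0.83.

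**Figure D1:**
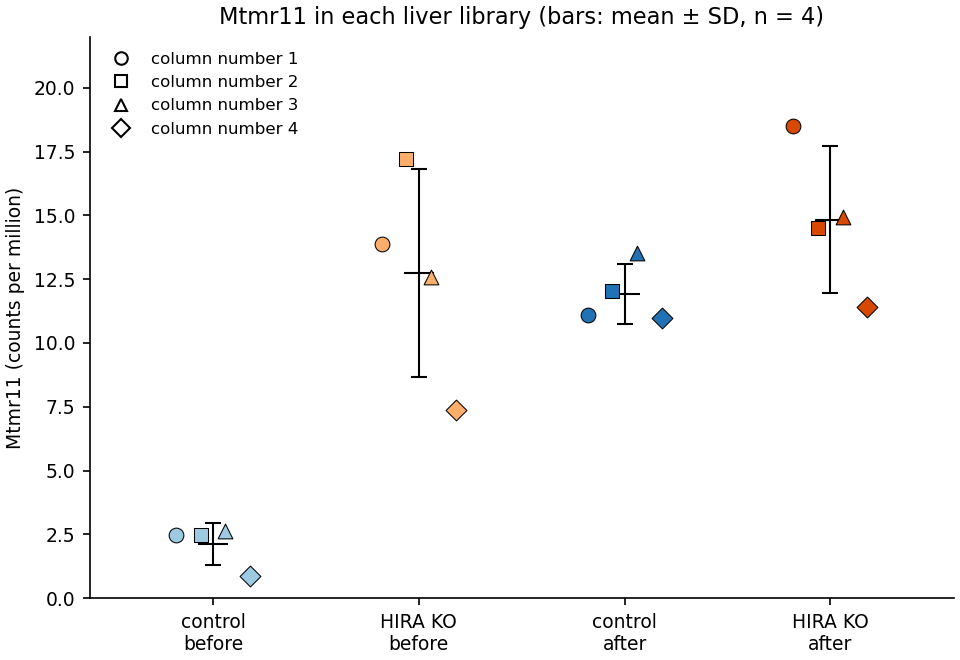
Mtmr11 in each of the 16 liver libraries, in CPM on the vertical axis, by group on the horizontal axis; each symbol is a library, with its shape giving the column number, and bars show the mean ± SD of 4 libraries. Control before regeneration is at 0.888 to 2.63 CPM, and the other 3 groups lie between 7.39 and 18.5 CPM.

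The level that differed most with regeneration was that of control liver, in which Mtmr11 was at 2.12 ± 0.825 CPM before and 11.9 ± 1.17 CPM after it. The fitted log2 difference was 2.48 ± 0.28 (SE) in control and 0.22 ± 0.26 in HIRA KO, and the difference of the HIRA KO effects was -2.26 ± 0.38. These values use the libraries that chose the gene, so they too are a description with no test. The difference between genotypes in resting liver and that with regeneration in control share the 4 resting control libraries. Markers of other cells moved over the same interval. The sum of 5 Kupffer cell markers went from 137 to 359 CPM before regeneration to 585 to 755 CPM after it in control, and from 172 to 213 to 575 to 903 CPM in HIRA KO. The sum of 5 mitotic genes went from 2.83 to 7.50 to 30.6 to 229 CPM in control, and from 3.87 to 16.8 to 34.3 to 211 CPM in HIRA KO. All 5 genes of both lists were called higher after regeneration in both genotypes. Of all genes, 10.2% were called in either direction in control and 12% in HIRA KO. The Mtmr11 values of HIRA KO before and after overlapped. The part of these cells in the Mtmr11 values was not tested.

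Compared per length, Mtmr11 was last of the family in resting control. By the deposited FPKM its mean in control before regeneration was 0.970 ± 0.356 (SD, n = 4), at rank 10 of the 10 members. It was at 5.44 ± 2.27 FPKM and rank 6 in HIRA KO before regeneration, at 5.75 ± 1.02 FPKM and rank 6 in control after it, and at 7.81 ± 3.15 FPKM and rank 1 in HIRA KO after it. By CPM per kilobase of exon the ranks were 10, 8, 8 and 6. Its share of all reads on the 10 members was 0.824% ± 0.339 in resting control, 4.98% ± 1.77 in resting HIRA KO, 4.51% ± 0.281 in control after and 7.01% ± 1.73 in HIRA KO after regeneration (SD, n = 4). Resting control was lowest by rank, by share and by CPM.

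Over all 16 libraries the order by mean FPKM was Mtmr2 (7.38), Mtmr4 (7.34), Mtmr9 (7.21), Mtmr6 (5.64), Mtmr3 (5.63), Mtmr11 (4.99), Mtmr1 (4.90), Mtmr10 (4.37), Mtm1 (2.73) and Mtmr12 (2.17). By CPM per kilobase Mtmr4 was first (8.22), Mtmr2 at rank 4 (5.44) and Mtm1 last (0.812). The count and FPKM tables do not match gene for gene, and 4613 to 5667 genes per library had 0 counts and an FPKM above 0. None of the 9 pairs of neighbours in the FPKM order was apart in all libraries. The range of Mtmr11 spanned most of the order, from 0.466 to 11.4 FPKM. In CPM its highest library was 20.8 times its lowest, against 1.39 times for Mtmr6 and 3.76 times for Mtmr4, the widest range among the other 9 members. The lowest Mtmr11 library was resting control library 4, at 0.888 CPM from 15 reads. Resting control was part of the comparison that chose Mtmr11, so its wider range is a description only.

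No other member was called between the genotypes in resting liver. This was so in HIRA KO against control before regeneration, where 0.0391% of all genes were called by edgeR at an adjusted p under 0.05. Groups that did not overlap were found in none of the 9 and in 8.07% of all genes. An unadjusted p under 0.05 was found in none of the 9 and in 13.2% of all genes, and DESeq2 called none of the 9 and 1.19% of all genes. Their log2 fold changes ran from -0.23 for Mtmr10 to 0.21 for Mtmr12, with standard errors of 0.089 to 0.28 and a smallest edgeR adjusted p of 0.600. Their median was -0.060, beside 0.0094 over all genes tested.

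After regeneration all 9 had a negative log2 fold change in HIRA KO against control, from -0.55 to -0.16, with a median of -0.25 beside 0.022 over all genes. None of the 9 was called by edgeR, which called 0.491% of all genes in this comparison. At an unadjusted p under 0.05 there were 3 (Mtmr3, Mtmr6 and Mtmr9), where 15.8% of all genes had one, and DESeq2 called Mtmr3 and Mtmr9, and 3.08% of all genes. In 4 members (Mtmr3, Mtmr4, Mtmr6 and Mtmr9) each HIRA KO library lay below each control library in CPM, where 4.45% of all genes did. By the deposited FPKM this held for Mtmr3 and Mtmr4, while the groups of Mtmr6 and Mtmr9 overlapped. Without HIRA KO libraries 1 and 2 the log2 fold change was negative in 7 of 9 and none was called, beside 0.0825% of all genes. Without libraries 3 and 4 it was negative in 8 of 9 and 4 were called lower (Mtmr1, Mtmr3, Mtmr9 and Mtmr10), beside 6.93% of all genes in that fit.

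**Figure D2:**
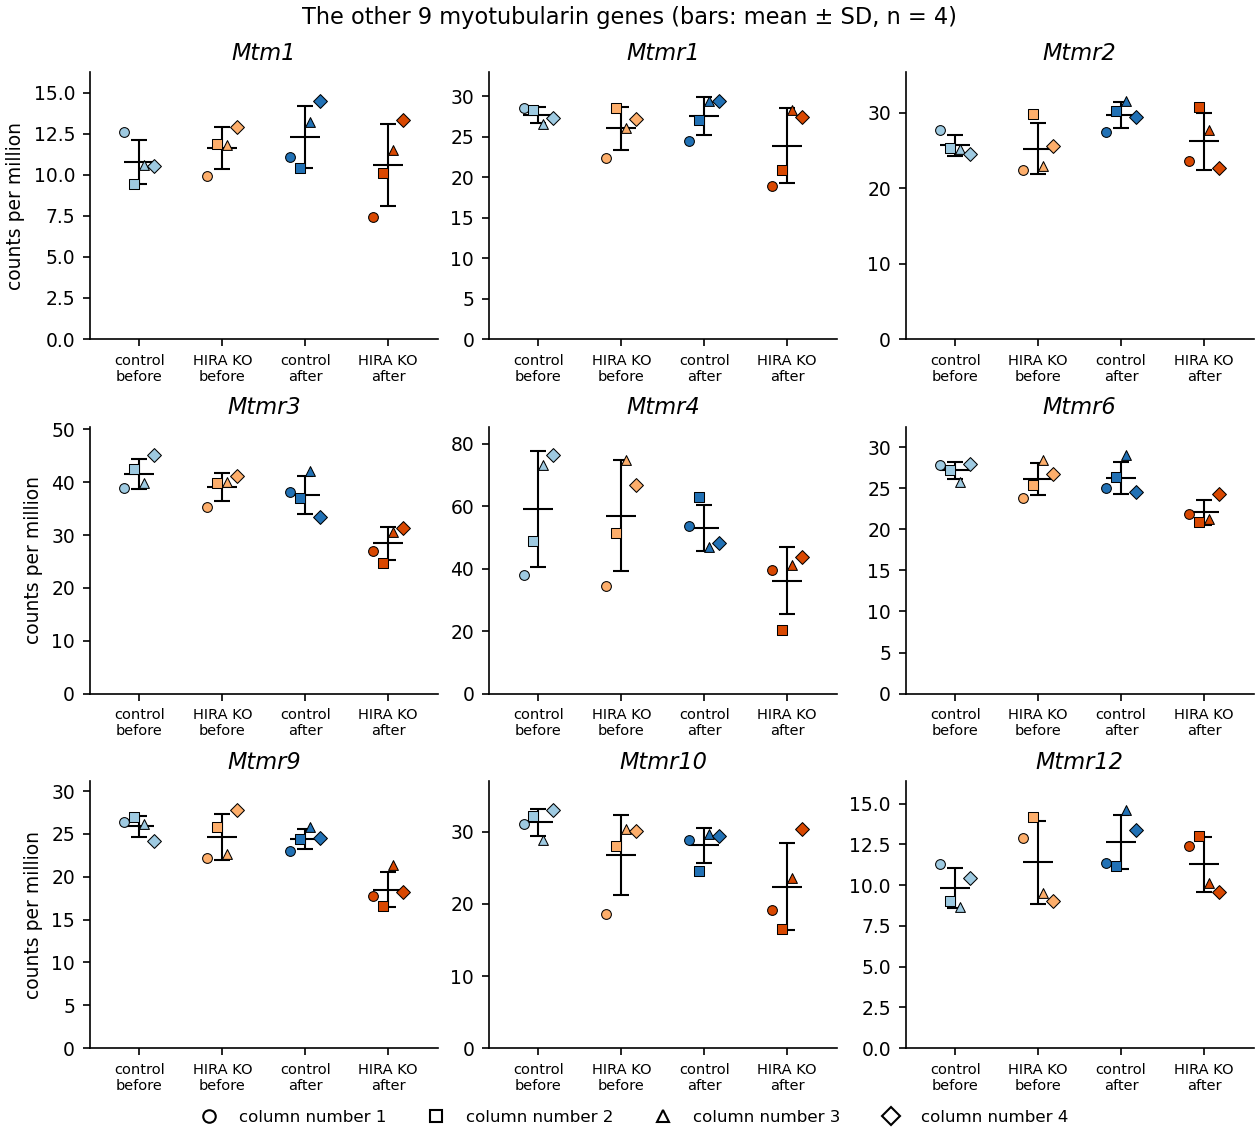
The other 9 myotubularin genes in CPM on the vertical axis, each panel a gene and each symbol a library of the group named below it, with symbol shapes giving the column number and bars the mean ± SD of 4 libraries. The HIRA KO libraries after regeneration lie below all control libraries after it in the panels of Mtmr3, Mtmr4, Mtmr6 and Mtmr9.

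Mtmr3 and Mtmr4 encode the active members that carry a FYVE domain, a fold that binds PI3P. Mtmr3 (chr11:4480868-4594863) was at 38.9, 42.6, 39.8 and 45.1 CPM in control and at 35.2, 39.8, 40.0 and 41.3 CPM in HIRA KO before regeneration. After it, control libraries were at 38.1, 37.0, 42.1 and 33.4 CPM and HIRA KO libraries at 27.1, 24.7, 30.6 and 31.4 CPM. The HIRA KO libraries after regeneration were thus below all 12 others. The log2 fold change of HIRA KO against control after regeneration was -0.40 ± 0.10 (SE) (edgeR adjusted p = 0.0728). It was -0.28 (edgeR adjusted p = 0.382) without HIRA KO libraries 1 and 2 and -0.54 (0.00883) without libraries 3 and 4.

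In HIRA KO, Mtmr3 fell with regeneration, from 39.1 ± 2.64 to 28.4 ± 3.13 CPM (SD, n = 4), a log2 fold change of -0.46 ± 0.10 (edgeR adjusted p = 0.00775). The groups did not overlap. In control the change was -0.15 ± 0.10 (edgeR adjusted p = 0.430). The difference between these changes was -0.31 ± 0.14 (edgeR adjusted p = 0.713), so the fall was not shown to be particular to HIRA KO. Without HIRA KO libraries 1 and 2 it was -0.39 and no longer called (edgeR adjusted p = 0.0687).

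Mtmr4 (chr11:87592162-87616302) had the widest spread of the other 9 members, at 38.0, 48.9, 73.3 and 76.3 CPM in control and 34.6, 51.4, 74.8 and 66.8 CPM in HIRA KO before regeneration. In both genotypes libraries 1 and 2 were below libraries 3 and 4. After regeneration it was at 53.8, 63.0, 46.9 and 48.2 CPM in control and at 39.6, 20.3, 41.3 and 43.7 CPM in HIRA KO. HIRA KO against control after regeneration gave a log2 fold change of -0.55 ± 0.28 (SE), the most negative of the 10 members, and its edgeR adjusted p was 0.355. In HIRA KO after against before regeneration it was -0.65 ± 0.28 (edgeR adjusted p = 0.146). Neither was called.

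Mtmr6 encodes an active enzyme and Mtmr9 its inactive partner. Mtmr9 (chr14:63519651-63543982) was at 26.4, 26.9, 26.2 and 24.1 CPM in control and 22.2, 25.9, 22.7 and 27.8 CPM in HIRA KO before regeneration. After it, control libraries were at 23.0, 24.4, 25.8 and 24.5 CPM and HIRA KO libraries at 17.8, 16.6, 21.4 and 18.3 CPM. As with Mtmr3, all 4 HIRA KO libraries after regeneration were below the other 12 in CPM. By the deposited FPKM they were not, at 5.47 to 6.96 in HIRA KO and 6.52 to 8.33 in control after regeneration. The log2 fold change of HIRA KO against control after regeneration was -0.40 ± 0.10 (SE) (edgeR adjusted p = 0.0704), and it was -0.51 (0.00870) without libraries 3 and 4. Over the alternatives other than single libraries left out it ran from -0.51 to -0.30. Without libraries 1 and 2 none of the 9 members had an edgeR adjusted p under 0.379.

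Mtmr9 fell with regeneration in HIRA KO, from 24.6 ± 2.67 to 18.5 ± 2.08 CPM (SD, n = 4), a log2 fold change of -0.41 ± 0.10 (edgeR adjusted p = 0.0128). The change in control was -0.085 ± 0.099 (edgeR adjusted p = 0.679) and the difference between the changes -0.33 ± 0.14 (edgeR adjusted p = 0.685). The fall was no longer called without HIRA KO libraries 1 and 2 (-0.35, edgeR adjusted p = 0.128), without libraries 3 and 4 (-0.48, 0.0506), without HIRA KO library 4 before regeneration (-0.33, 0.0753), in a fit of the HIRA KO libraries alone (-0.40, 0.0918) or with plain library totals (-0.29, 0.109). Its partner Mtmr6 (chr14:60265228-60302370) was at 23.9 to 28.4 CPM in HIRA KO before and 20.9 to 24.3 CPM after regeneration, and at 24.6 to 29.0 CPM in control after it. The log2 fold change of Mtmr6 was -0.25 ± 0.089 for HIRA KO against control after regeneration (edgeR adjusted p = 0.177) and -0.24 ± 0.089 with regeneration in HIRA KO (edgeR adjusted p = 0.0853).

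Over the 9 members, 2 were called with regeneration in HIRA KO, both lower (Mtmr3 and Mtmr9), where 12% of all genes were called and 5.53% were called lower. In CPM the groups of these 2 did not overlap, with HIRA KO lower after regeneration, as for 7.45% of all genes. By the deposited FPKM those of Mtmr9 overlapped, at 6.73 to 8.33 before and 5.47 to 6.96 after regeneration. In control none was called and none had groups that did not overlap, where 10.2% and 19% of all genes did, with a smallest edgeR adjusted p of 0.183, and DESeq2 also called none, with 13.1% of all genes called. Of the 9, only Mtmr12 had an unadjusted p under 0.05 in control, as 23.5% of all genes did, with a change of 0.36 ± 0.16 on the log2 scale. The difference of the HIRA KO effects was negative in all 9, from -0.49 to -0.10. None was called by edgeR or DESeq2, which called 0% and 0.236% of all genes for this difference. Mtmr3 and Mtmr9 had an unadjusted p under 0.05, as did 6.81% of all genes.

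**Figure D3:**
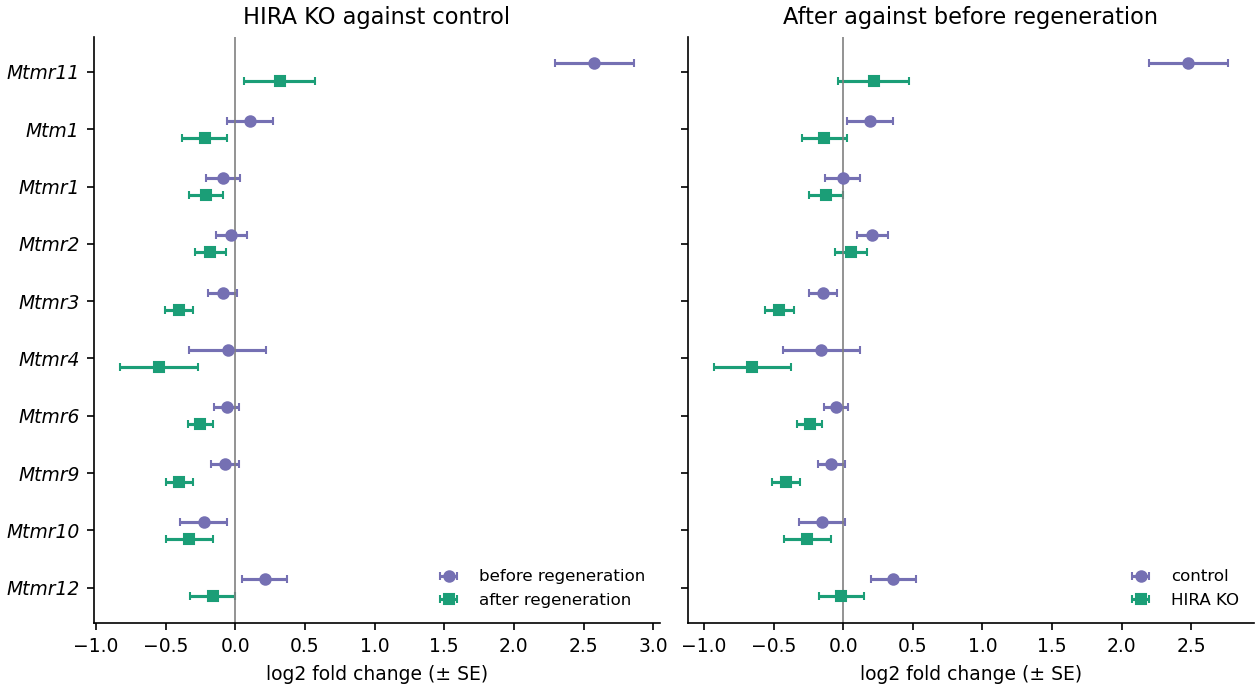
Log2 fold changes of the 10 members with their standard errors, HIRA KO against control before and after regeneration (left) and after against before regeneration in control and HIRA KO (right); each row is a gene and the grey line marks no difference. Mtmr11 is at 2.58 and 2.48 in the comparisons that use resting control liver and at 0.32 and 0.22 in the others, and the other 9 members lie between -0.65 and 0.36.

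Mtm1, Mtmr1 and Mtmr2 are active enzymes of one subgroup, and Mtmr12 is the inactive partner of Mtm1. Mtm1 (chrX:71210767-71315691) was at 9.41 to 12.6 CPM in control and 9.89 to 12.9 CPM in HIRA KO before regeneration, and at 10.4 to 14.5 and 7.43 to 13.4 CPM after it. Mtmr12 (chr15:12205028-12274496) was at 8.64 to 11.3 and 9.02 to 14.2 CPM before and at 11.2 to 14.6 and 9.57 to 13.0 CPM after regeneration. Their ranges overlapped in every comparison.

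Mtmr1 (chrX:71364760-71419196) was at 26.6 to 28.6 CPM in control and 22.3 to 28.5 CPM in HIRA KO before, and at 24.5 to 29.4 and 18.9 to 28.3 CPM after regeneration. The low end in HIRA KO came from library 1 at both times, and without libraries 3 and 4 the log2 fold change after regeneration was -0.47 (edgeR adjusted p = 0.0237). Without libraries 1 and 2 that log2 fold change was 0.015 (edgeR adjusted p = 0.990). Mtmr2 (chr9:13748410-13806481) was at 24.6 to 27.7 and 22.5 to 29.9 CPM before and at 27.4 to 31.6 and 22.8 to 30.8 CPM after regeneration. The ranges of Mtmr1 and Mtmr2 overlapped in all 4 comparisons of groups.

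Mtmr10 (chr7:64287653-64340806) forms a subgroup of inactive members with Mtmr11 and Mtmr12. It was at 31.1, 32.2, 28.8 and 33.0 CPM in control and 18.6, 28.1, 30.4 and 30.1 CPM in HIRA KO before regeneration, and at 28.9, 24.5, 29.6 and 29.5 against 19.2, 16.5, 23.6 and 30.4 CPM after it. HIRA KO library 1 was low at both times and library 2 after regeneration. Against control, the HIRA KO log2 fold change was -0.23 ± 0.17 before (edgeR adjusted p = 0.600) and -0.33 ± 0.17 after regeneration (edgeR adjusted p = 0.350). Without libraries 3 and 4 it was -0.66 after regeneration (edgeR adjusted p = 0.00986). Over the other alternatives, single libraries left out aside, it was not called and reached -0.062 (edgeR or DESeq2 adjusted p up to 0.921).

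Of the 4 myotubularin genes outside the 10 (Mtmr7, Mtmr14, Sbf1 and Sbf2), none was called between the genotypes at either time. The share of all genes called was 0.0391% before and 0.491% after regeneration. Mtmr7, an active enzyme close to Mtmr6, was at 10.4 and 10.5 CPM in HIRA KO libraries 1 and 2 before regeneration and at 10.7 and 13.0 CPM after it. It was at 2.58 to 4.08 CPM in the other 12 libraries. Its log2 fold change was 1.21 ± 0.45 before (edgeR adjusted p = 0.289) and 1.13 ± 0.45 after regeneration (edgeR adjusted p = 0.231). Mtmr11 was also higher in HIRA KO libraries 1 and 2 than in 3 and 4 before regeneration. Sbf1, an inactive partner of Mtmr2, fell with regeneration in HIRA KO from 46.7 ± 1.17 to 34.8 ± 2.99 CPM (SD, n = 4), a log2 fold change of -0.43 ± 0.097 (edgeR adjusted p = 0.00928). In this comparison 12% of all genes were called and 5.53% were called lower. The change of Sbf1 in control was -0.18 ± 0.097 (edgeR adjusted p = 0.281) and the difference between the changes -0.25 ± 0.14 (0.764). By the deposited FPKM Sbf1 did not fall in HIRA KO, at 11.1 ± 0.710 before and 11.7 ± 2.85 after regeneration.

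Among the enzymes that make and remove these lipids and the proteins that bind them, 2 genes were called between the genotypes, both lower in HIRA KO after regeneration. Of all genes, 0.0391% were called before and 0.491% after regeneration. Of 10 genes of PI3P synthesis, none was called before regeneration and 1 was called after it. This was Rubcn, an inhibitor of the class III PI3-kinase complex, which was at 20.7 ± 1.91 CPM in control and 14.8 ± 0.702 CPM in HIRA KO (SD, n = 4; log2 fold change -0.49 ± 0.095, edgeR adjusted p = 0.0392). Of 21 other phosphoinositide enzymes, none was called before and 1 after regeneration. That was Pip4p2, a phosphatase of PI(4,5)P2, at 18.6 ± 0.513 CPM in control and 13.6 ± 1.11 CPM in HIRA KO (log2 fold change -0.44 ± 0.095, edgeR adjusted p = 0.0464). Resting control was at 13.0 ± 0.640 CPM of Pip4p2, near HIRA KO after regeneration. The gene was called higher with regeneration in control (log2 fold change 0.52 ± 0.096, edgeR adjusted p = 0.00267). Of 27 proteins that bind PI3P or PI(3,5)P2, none was called at either time. The medians of the 3 lists after regeneration were -0.20, -0.058 and -0.17, beside 0.022 over all genes.

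With regeneration in HIRA KO, 3 of the 10 PI3P synthesis genes were called lower and none higher, where 12% of all genes were called and 5.53% were called lower. These were Rubcn (-0.42 ± 0.095, edgeR adjusted p = 0.00870), Atg14 (-0.62 ± 0.16, 0.0173), the autophagy subunit of the class III PI3-kinase complex, and its regulator Nrbf2 (-0.69 ± 0.21, 0.0442). None of the 10 was called in control, where 10.2% of all genes were. Of the 21 other enzymes, 1 was called higher and 4 lower in HIRA KO, and 2 higher (Inpp5d and Pip4p2) and none lower in control. Inpp5d, a phosphatase of blood cells, rose in both (log2 fold change 1.06 ± 0.24 in control and 0.78 ± 0.23 in HIRA KO, edgeR adjusted p 0.00793 and 0.0385), as the Kupffer cell markers did. Of the 27 binding proteins, 3 were called higher and 4 lower in HIRA KO (Zfyve1, Wdfy3, Zfyve26 and Snx27 were the lower ones) and 1 lower in control (Mcoln1, a lysosomal channel). For the difference of the HIRA KO effects edgeR called 0% of all genes, and so none of these lists.

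The nearest neighbours of Mtmr11 on chromosome 3 were not called in resting liver. Otud7b, a deubiquitinase that ends at position 96161129 just before Mtmr11 begins, was at a log2 fold change of -0.046 before regeneration (edgeR adjusted p = 0.914). Sf3b4, a splicing factor that starts 10.3 kb downstream of the Mtmr11 start, was at 0.18 (edgeR adjusted p = 0.473). The antisense gene Gm17690 overlaps 4255 bases of Mtmr11 and held 11 to 36 reads in resting control and 23 to 40 in resting HIRA KO libraries, a log2 fold change of 0.38 (edgeR adjusted p = 0.619). The kit marks strand, but whether the counting used it is not stated, so reads of Mtmr11 and Gm17690 may have been shared out between them.

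Within 1000 kb of the Mtmr11 start, 1 of 86 tested genes (1.16%) was called before regeneration and 1 of 86 after it, beside 0.0391% and 0.491% of all genes. Polr3gl, a subunit of RNA polymerase III, was lower in HIRA KO before, at 3.68 ± 1.07 against 9.52 ± 1.19 CPM (SD, n = 4; log2 fold change -1.37 ± 0.22, edgeR adjusted p = 0.0285). Ciart, a circadian repressor, was higher in HIRA KO after regeneration, at 14.0 ± 14.3 against 0.514 ± 0.143 CPM (log2 fold change 4.76 ± 0.77, edgeR adjusted p = 0.0383). With regeneration 6 of the 86 genes (6.98%) were called in control and 10 (11.6%) in HIRA KO, beside 10.2% and 12% of all genes.

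**Figure D4:**
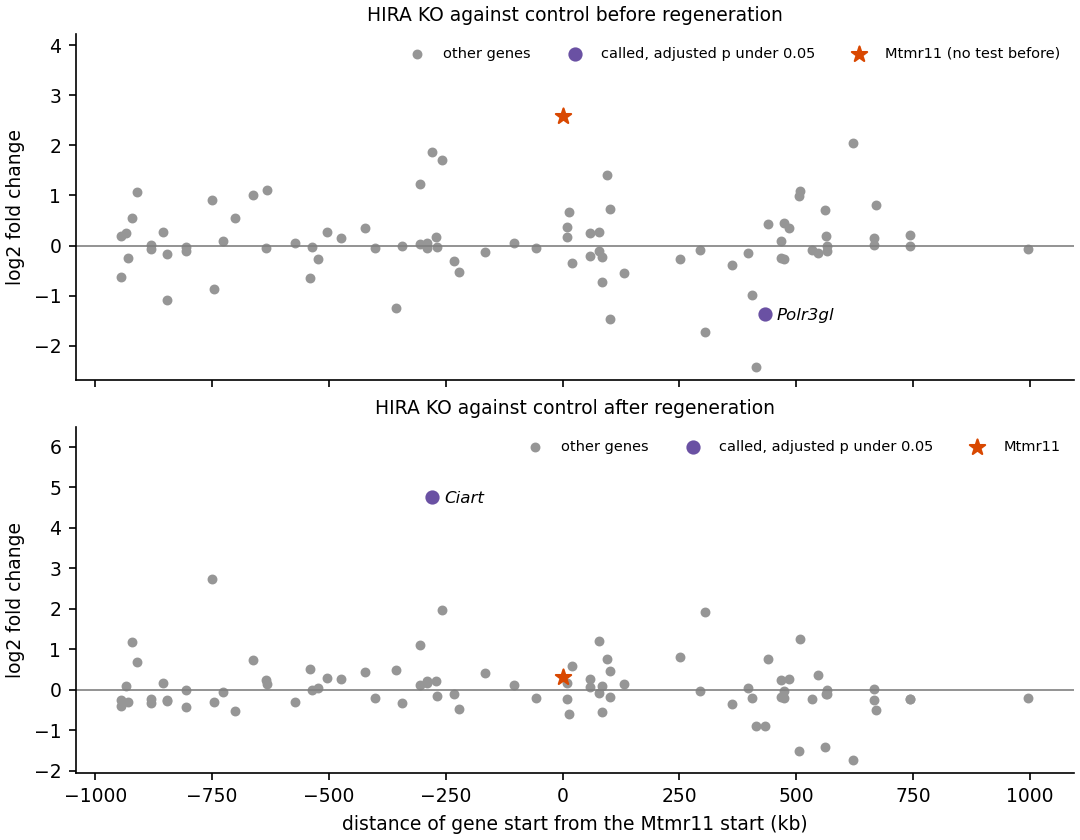
Log2 fold change of HIRA KO against control before (top) and after (bottom) regeneration for the 86 tested genes within 1000 kb of Mtmr11, by distance of each gene start from the Mtmr11 start in kb. The star is Mtmr11, at 2.58 before and 0.32 after, and the purple points are the called genes Polr3gl and Ciart.

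Over the 16 libraries, the genes of at least 1 CPM whose log2(CPM + 1) followed Mtmr11 most closely, among 13174 compared, were Asns (Pearson r = 0.907), Cd9 (0.904), Cd276 (0.885), Flvcr1 (0.877), Bach2os (0.877) and Mob3a (0.873). This is a description of 16 libraries in 4 groups, in which the low values of resting control weigh heavily. With the group means removed r was 0.751 for Asns, 0.636 for Cd9, 0.776 for Cd276, 0.154 for Flvcr1, 0.299 for Bach2os and 0.687 for Mob3a. By Spearman's rho, 2 of the 6 were again among the first 6 (Asns, 0.912 and Mob3a, 0.924).

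Asns, which encodes asparagine synthetase, was at 0.547, 0.377, 0.572 and 0.0592 CPM in resting control, with 1 to 11 reads. It was at 7.04, 5.67, 1.56 and 0.877 CPM in resting HIRA KO, at 4.13, 5.56, 6.00 and 3.36 CPM in control after and at 7.75, 5.28, 9.34 and 3.00 CPM in HIRA KO after regeneration. Library 4 was lowest in each group, as it was for Mtmr11. Cd9, which encodes a tetraspanin, was at 17.0 to 20.4 CPM in resting control and 28.2 to 39.3 CPM in resting HIRA KO. Cd276, which encodes a ligand of the B7 family, was at 2.01 to 6.02 and 5.95 to 21.2 CPM in the same groups. For Cd276 the resting groups touched.

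Among the other members, r with Mtmr11 ran from -0.58 for Mtmr3 to 0.53 for Mtmr12, and that of Mtmr7 was 0.55. None came near the leading genes.

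**Figure D5:**
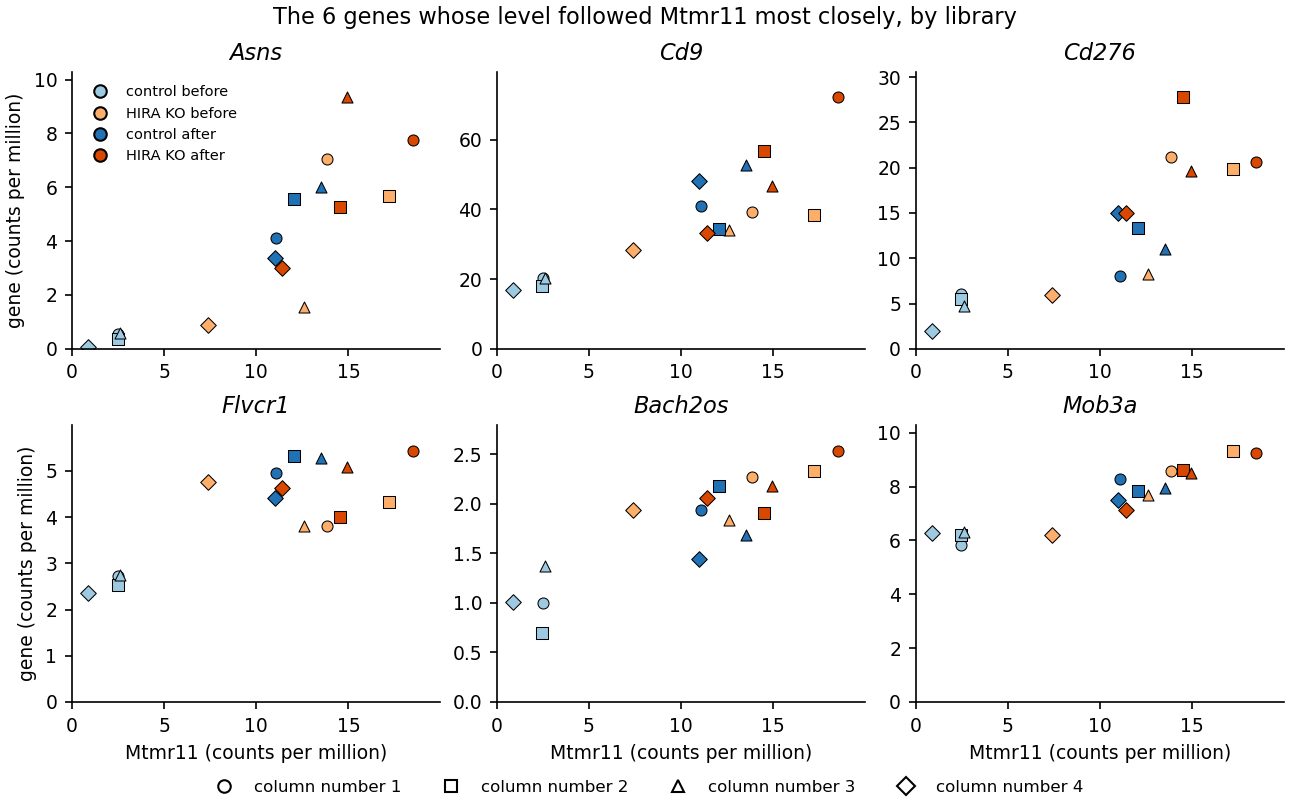
Each panel plots a gene against Mtmr11, both in CPM on linear axes, for 16 libraries coloured by group with symbol shapes giving the column number. The 4 resting control libraries lie at the lower left of each panel, at 0.888 to 2.63 CPM of Mtmr11, and Asns ranges from 0.0592 to 9.34 CPM.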

How the data were processed

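Poly-A RNA from 16 mouse liver samples had been made into directional libraries and sequenced. According to the methods of the study, reads were aligned to mm10 with STAR and counted per gene with HOMER, while the submitters' processing notes name STAR, HTSeq and Cufflinks. The deposited count table held raw read counts of 55421 genes. The deposited FPKM table was made by the authors, the notes not saying which of these tools gave it, and 48.6% to 54.7% of its cells per library were empty and read as 0. FPKM served for levels between genes and, for some genes, as a second measure between groups. All fold changes and tests used the counts.

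Coordinates and codons came from GENCODE M21 on GRCm38, in which 54673 of the 55421 gene IDs were identical. Genes with at least 10 counts in total (23018) were fitted with edgeR 4.0.16 (R 4.3.3): TMM factors, 4 group means over all 16 libraries and the robust quasi-likelihood test. Adjusted p-values are Benjamini-Hochberg over all genes tested, called under 0.05. SE was approximated as the log2 fold change over the root of its F statistic. DESeq2 1.42.0 was an alternative. On counts simulated for HIRA KO against control before regeneration over 23018 genes, 60 of 100 genes changed 2-fold and 97 of 100 changed 6-fold were called, with 8 of 22818 unchanged genes. The changed genes were drawn from those with a mean of at least 1 CPM, and all other genes had equal means in all groups. In the data only 9 genes were called, which makes the adjusted threshold stricter than in the simulation. The simulated shares are therefore not the power in the data.

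Library totals of 15103059 to 21738619 counts set the precision. No library pair within a group was a duplicate (chi-square per degree of freedom 12.4 to 135 over 24 pairs). By the methods and a figure legend of the study the replicates are separate mice, each sampled before and after. The labels name no mouse. The column numbers are in no label. In HIRA KO the deviations of same-numbered libraries before and after correlated at 0.587, 0.386, 0.463 and 0.579, so these numbers were taken to pair the libraries there, and blocked fits were run as alternatives. Named genes were all 10 members, the 4 other myotubularins, up to 4 called genes per pathway list and comparison, the nearest and the called neighbours and the 6 most similar genes. A called gene of the phosphoinositide enzyme list is not reported here. The members and lists were chosen with earlier results of these data known.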

Additional observations from a re-analysis of the deposited data

Results flagged for a closer look

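In 40 groups of 4 libraries (10 members in 4 groups), a library lying far from the other 3 was looked for with Dixon's test, which chance flags in about 1 of 20 groups. It marked 2. Mtmr11 in control before regeneration was at 0.888 CPM in library 4, while the other 3 libraries were at 2.47 to 2.63 CPM. This library came from 15 reads of Mtmr11. Mtmr10 in control after regeneration was at 24.5 CPM in library 2, with the others at 28.9 to 29.6 CPM. Without control library 4 the Mtmr11 log2 fold change of HIRA KO against control before regeneration was 2.32, the lowest of the values seen when any 1 library was left out, and the highest was 2.76.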

How the results depend on the processing

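Over the alternatives other than single libraries left out, the log2 fold change of Mtmr11 in HIRA KO against control ran from 2.22 to 2.86 before regeneration and from 0.15 to 0.47 after it, never called after it (edgeR or DESeq2 adjusted p 0.255 to 0.917). With any 1 library left out it ran from 2.32 to 2.76 and from 0.19 to 0.42. Of 410 values of members under other tools, filters, scalings and blocks 397 kept direction and side of the threshold, as did 460 of 480 with 1 library left out. Signs that turned belonged to members that were not called, and the cause was not tested. With plain library totals, which move the median of all genes by 0.121 with regeneration in HIRA KO, Mtmr1 and Mtmr6 in control were at 0.064 and 0.013 and Mtmr12 in HIRA KO at 0.11. With edgeR's own filter Mtmr1 in control was at 0.0092 and Mtmr12 in HIRA KO at 0.0076, and Mtmr12 was at 0.0044 without a filter and 0.0024 with only the groups compared. Without HIRA KO libraries 1 and 2, added after seeing the data, the values after regeneration were 0.011 for Mtm1 and 0.015 for Mtmr1, and before it 0.26 for Mtmr4, 0.019 for Mtmr6 and -0.088 for Mtmr12. With regeneration in HIRA KO they were 0.0046 for Mtm1, 0.065 for Mtmr1 and 0.090 for Mtmr12, and 0.070 for Mtmr1 in the difference of effects. Without libraries 3 and 4, Mtmr2 before was at 0.023 and Mtmr12 after at 0.0086. With 1 library left out, the ranges that crossed 0 were -0.27 to 0.0014 for Mtm1, -0.092 to 0.11 for Mtmr12 and -0.031 to 0.15 for Mtmr2 with regeneration in HIRA KO, -0.068 to 0.045 for Mtmr1 with regeneration in control, -0.12 to 0.025 for Mtmr2 and -0.22 to 0.12 for Mtmr4 in resting liver, and -0.29 to 0.018 for Mtmr10 in the difference. Mtmr3 after regeneration was called without HIRA KO library 4 after regeneration (-0.45, edgeR adjusted p = 0.0417), and Mtmr9 without library 3 (-0.45, 0.0416).

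The fits that assumed pairs, with the column number within genotype as a replicate block, called 3999 genes with regeneration in control and 3560 in HIRA KO, against 2350 and 2764. They changed no member's call (Mtmr12 in HIRA KO was at 0.014). In control the same-numbered libraries before and after correlated at 0.0806 to 0.377, 1 of them under 0.1, though each correlated best with its own number, as did all but library 3 in HIRA KO. A block of column number across genotypes called 104 genes before, 565 after and 1 for the difference, and called Mtmr3 lower after regeneration (-0.41, edgeR adjusted p = 0.0449).

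DESeq2 called 273 genes before, 705 after and 54 for the difference, against 9, 113 and 0. No filter gave 36 before and 1 for the difference, edgeR's filter 228 after, library totals 51 after, and only the groups compared 0 after (3173 genes had an unadjusted p under 0.05 in that fit) and 1340 with regeneration in HIRA KO. Without HIRA KO libraries 1 and 2 the counts were 5 before, 19 after and 3784 in control, and without 3 and 4 they were 2334 before, 2932 after, 970 in HIRA KO and 33 for the difference. With 1 library left out they ran from 1 (control library 1 or HIRA KO library 2) to 26 (HIRA KO library 4) before, with every library but control 4 moving the count by over 1.5 times, and from 5 (HIRA KO library 1) to 503 (HIRA KO library 4) after, where every library did. They ran from 1519 (control library 4 after) to 2324 in control, from 1636 (HIRA KO library 4 before, with 1744 for library 3 before and 1834 for library 3 after) to 2784 in HIRA KO, and from 0 to 7 for the difference. Within 500 kb of Mtmr11, 3 genes were called in control and 5 in HIRA KO with regeneration. Of the 6 genes most like Mtmr11, 2 stayed by Spearman's rho and 0 after group means were removed. The rank of Mtmr11 among 10 was 6 by FPKM and 8 by CPM per kilobase.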

Other observations

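HIRA KO library 3 after regeneration held 97.1 CPM over 4 skeletal muscle genes (Acta1, Ckm, Myh4 and Tnnt3), HIRA KO library 1 after regeneration held 10.5 CPM, and the other libraries held at most 0.400 CPM. Mtm1, the myotubularin mutated in a muscle disease, was at 11.5 CPM in the former library and 7.43 CPM in the latter, within and below the 10.4 to 14.5 CPM of the control libraries after regeneration. Mtmr11 was at 14.9 and 18.5 CPM in them.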
